A study of Mus musculus with 9 samples.

Results

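Glycolysis splits glucose into pyruvate in the cytosol, and pyruvate is then reduced to lactate by lactate dehydrogenase or carried into mitochondria. There the pyruvate dehydrogenase complex turns it into acetyl-CoA for the citric acid cycle, while pyruvate carboxylase refills the cycle with oxaloacetate. In brain, pyruvate carboxylase and the aldolase isozyme of Aldoc are known as largely astrocytic, and neurons are known for a high oxidative demand. The enzyme genes described here were the 46 whose symbol stands as a row name in a table of 24487 rows: 9 genes of upper glycolysis, 6 of lower glycolysis, 2 of lactate dehydrogenase, 2 of the mitochondrial pyruvate carrier, 5 of the pyruvate dehydrogenase complex, 3 pyruvate dehydrogenase kinases, pyruvate carboxylase, 12 genes of the citric acid cycle and 6 cytosolic or shuttle enzymes. They were listed by name with earlier results of these data known, and the rule itself has no threshold on a measured value.

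RNA sequencing had been made of midbrain dopaminergic neurons (4 libraries) and of whole midbrain (5 libraries), both from mice of the C57BL/6 strain, and the comparison asked which transcripts differ between the neurons and the tissue that holds them. No genotype, transgene, treatment, age or sex is given in the labels for either group. How RNA was obtained from the dopaminergic cells is not in the labels. The deposited table carries bacTRAP in its name, which usually stands for pulling down tagged ribosomes of 1 cell type, so an effect of such a capture and one of cell type cannot be told apart. Nothing says that libraries came from separate animals, and each p-value therefore covers the spread among these libraries alone, which could be technical.

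Values are FPKM, that is, fragment counts divided by transcript length and by the number of fragments mapped. Depth, estimated from single-exon genes, was about 47.6 to 62.7 megareads in dopaminergic libraries and 16.3 to 33.8 megareads in whole midbrain libraries. Whole midbrain library 2 stood apart: its FPKM summed to 409130, against 309275 to 313252 in the other libraries of its group. Some of the results that rest on it, but not all, are given with and without it. In the dopaminergic libraries FPKM summed to 506466 to 521822. The labelled cell type matched its markers: Th (tyrosine hydroxylase), Slc6a3, Slc18a2 and Ddc summed to 3542 to 3939 FPKM in dopaminergic libraries and to 199 to 229 FPKM in whole midbrain. The markers of other cells were all lower in every dopaminergic library than in any whole midbrain library: 8 of 8 astrocyte, 7 of 7 oligodendrocyte, 6 of 6 microglial, 5 of 5 endothelial and 5 of 5 markers of GABAergic and glutamatergic neurons. None of these was listed at 0 in all dopaminergic libraries.

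The gene with the largest fall, Gapdh, has near-identical copies, so its sequence bears on how its value is read. A processed pseudogene on chromosome 11 that has a row of its own, Gm12070 (chr11:26785108-26787859, mm10), matched the coding stretch of Gapdh (chr6:125161852-125166467, mm10, minus strand) at 99.9 percent over 1002 bases. Bases 311 to 410 of that stretch are shown from both, 5′ to 3′, with the only mismatch, G361A, in capitals (Gapdh base, position counted from the first aligned base, copy base).
Gapdh: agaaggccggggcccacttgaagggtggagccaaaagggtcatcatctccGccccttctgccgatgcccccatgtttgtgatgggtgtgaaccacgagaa
Gm12070: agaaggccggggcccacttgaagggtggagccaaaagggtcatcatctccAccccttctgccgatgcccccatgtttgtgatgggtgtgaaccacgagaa
Apart from that base the stretches shown are identical.

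The start regions of the genes with the largest rises and falls are shown next, among the 31 members with a single listed start. Each window runs from 250 bases before to 50 after the start in RefSeq (GRCm38.p6), on the gene's own strand. Capitals mark GGGCGG, the core of the GC box, and ACGTG, the core shared by hypoxia-response and E-box elements, on either strand. The 2 motifs share no overlapping letters in these windows.
Mpc2 (chr1:165461010-165461309, plus strand): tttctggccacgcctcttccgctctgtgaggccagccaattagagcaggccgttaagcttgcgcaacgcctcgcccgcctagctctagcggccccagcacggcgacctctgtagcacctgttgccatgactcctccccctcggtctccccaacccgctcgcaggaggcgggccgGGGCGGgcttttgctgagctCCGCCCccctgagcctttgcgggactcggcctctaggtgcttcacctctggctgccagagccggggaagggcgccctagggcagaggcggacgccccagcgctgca
Tpi1 (chr6:124814109-124814408, minus strand): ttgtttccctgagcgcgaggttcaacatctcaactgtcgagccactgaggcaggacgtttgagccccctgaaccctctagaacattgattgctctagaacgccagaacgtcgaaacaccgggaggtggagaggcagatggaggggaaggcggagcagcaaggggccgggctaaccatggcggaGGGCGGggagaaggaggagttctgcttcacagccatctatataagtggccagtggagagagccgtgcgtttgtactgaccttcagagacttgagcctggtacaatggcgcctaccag
Gapdh (chr6:125165724-125166023, minus strand): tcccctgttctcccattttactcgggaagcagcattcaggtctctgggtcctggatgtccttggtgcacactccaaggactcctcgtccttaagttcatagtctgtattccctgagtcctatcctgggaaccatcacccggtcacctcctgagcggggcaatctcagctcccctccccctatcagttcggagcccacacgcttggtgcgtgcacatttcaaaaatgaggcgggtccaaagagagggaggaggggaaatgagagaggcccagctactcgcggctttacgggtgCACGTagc
Suclg2 (chr6:95718797-95719096, minus strand): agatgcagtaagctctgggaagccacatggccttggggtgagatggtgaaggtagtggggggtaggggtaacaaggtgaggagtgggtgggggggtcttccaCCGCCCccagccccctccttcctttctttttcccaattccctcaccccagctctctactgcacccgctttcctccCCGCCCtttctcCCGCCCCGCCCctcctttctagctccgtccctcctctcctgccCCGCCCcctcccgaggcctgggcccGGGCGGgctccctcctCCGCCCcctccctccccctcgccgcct
GGGCGG occurred 2 times in the Mpc2 window, 1 time in that of Tpi1 and 7 times in that of Suclg2, and ACGTG occurred 1 time in that of Gapdh. Over all 67 listed windows of 45 members, 38 windows (56.7 percent) held GGGCGG and 25 (37.3 percent) held ACGTG, against 35.7 and 19.6 percent of all 32851 windows. A gene with several listed starts is counted once per window, and such windows can overlap, as for Ogdh, so these are not shares of genes. A match is a run of letters, and binding was not measured.

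Of the 46 genes, 45 passed the filter of a mean of at least 1 FPKM. In dopaminergic neurons 26 of the 45 were higher and 8 lower than in whole midbrain, and 11 were not called (limma on log2(FPKM + 1), adjusted p under 0.05). The same fit called 38.3 percent of all 13106 genes tested higher and 36.0 percent lower. The median log2 fold change was 0.41 over the 45 genes and 0.04 over all genes tested. On the log2(FPKM + 1) scale, differences of at least 2-fold with an adjusted p under 0.05 were few, with 3 enzyme genes higher (Mpc2, Aldoa and Tpi1) and 3 lower (Gapdh, Suclg2 and Aldoc), where 15.1 and 16.7 percent of all genes tested reached that size. As plain ratios of mean FPKM, Pcx and Idh2 were also over 2-fold lower, at 2.44-fold and 2.15-fold. The per-library levels did not overlap for 30 of the 46 genes, with 22 higher in every dopaminergic library and 8 lower. Over all genes tested, 32.6 percent lay wholly above and 31.8 percent wholly below.

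The direction of many modest differences depended on how libraries were scaled. Rescaling FPKM to TPM moved the median of all genes tested by -0.64 on the log2 scale. Under TPM, 3 enzyme genes were called higher and 21 lower, and 15.9 and 59.1 percent of all genes tested were. Under quantile normalization 5 were called higher and 21 lower, against 38.1 and 31.3 percent of all genes tested. The median log2 fold change of the enzyme genes was then -0.28 under TPM, where that of all genes tested was -0.60, and -0.27 under quantile normalization, where that of all genes was 0.11. The 8 genes called lower as deposited (Gapdh, Suclg2, Aldoc, Pcx, Idh2, Pfkp, Pfkm and Cs) were called lower under all 3 scalings, and Mpc2 was the only gene called higher under all 3. Aldoa and Tpi1 were also called higher under TPM, and Eno1, Pdk1, Idh1 and Me3 under quantile normalization. Counts of called genes given by step below are to be read against these shares of all genes tested, and against 38.3 and 36.0 percent as deposited. Ratios between genes of 1 library are given with each step below. On FPKM they are the same as on TPM apart from the pseudocount, whereas quantile normalization, which was not run on the ratios, changes them.

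**Figure D1:**
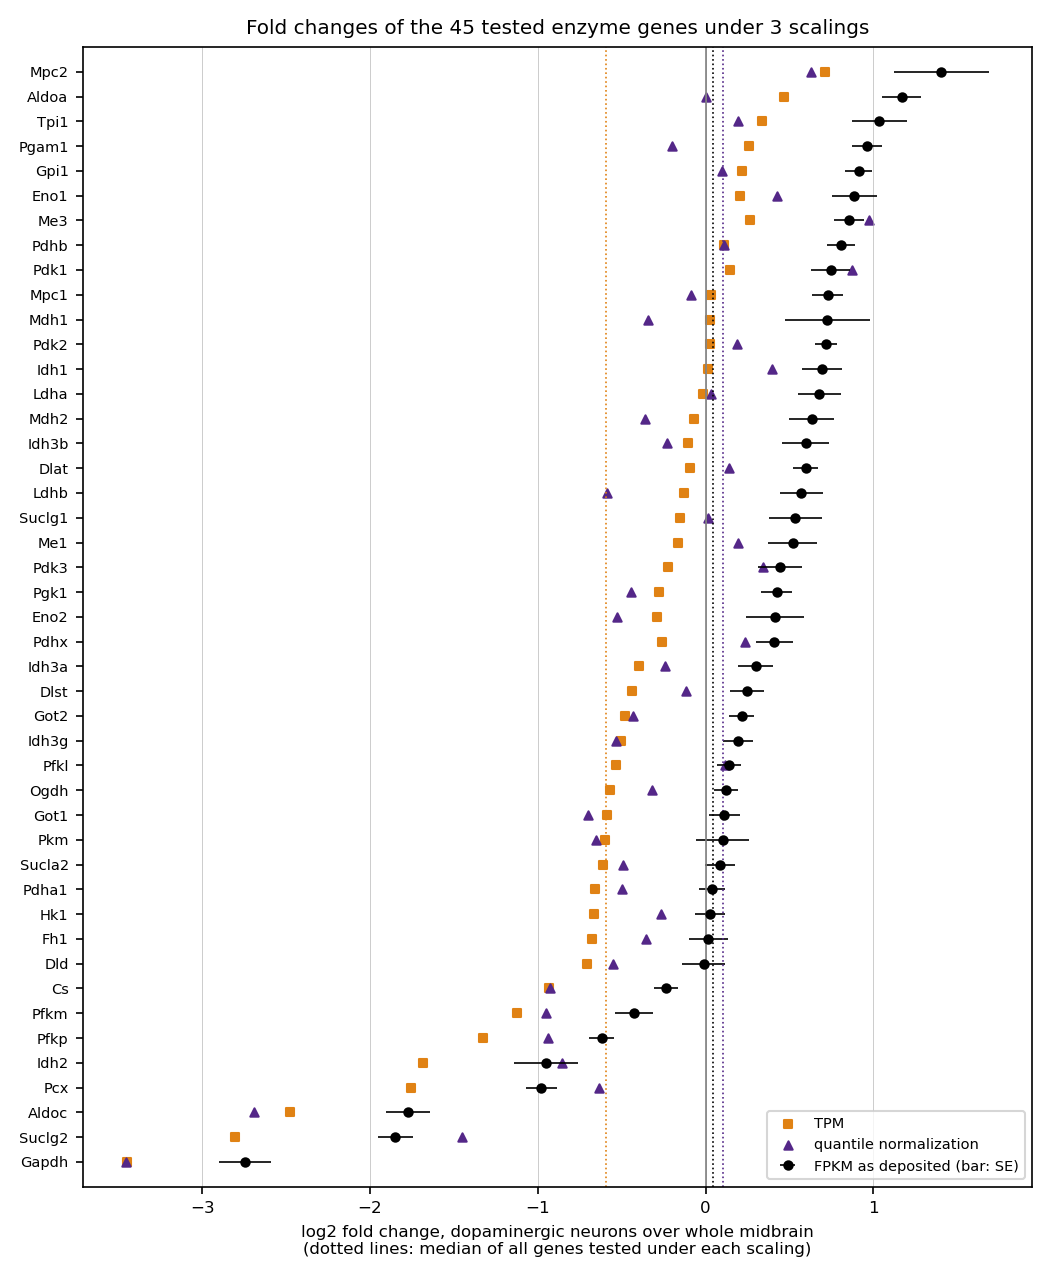
Log2 fold change of each of the 45 tested enzyme genes, dopaminergic neurons over whole midbrain, on FPKM as deposited (black, bars are SE), TPM (orange) and quantile-normalized values (purple), with dotted lines at the median of all genes tested. Gapdh, Suclg2 and Aldoc lie far to the left under every scaling, while most of the black points on the right cross 0 under TPM.

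In upper glycolysis the aldolase genes went in opposite directions. Aldoa, the widely expressed aldolase (chr7:126795234-126800447, mm10), was at 1036, 911, 1035 and 871 FPKM in dopaminergic libraries 1 to 4, against 461, 360, 449, 417 and 453 FPKM in whole midbrain libraries 1 to 5. It rose 2.25-fold (log2 fold change 1.17, SE 0.12, limma adjusted p = 6.75e-06), and every dopaminergic library lay above every whole midbrain library. Under quantile normalization its log2 fold change was 0.00. Aldoc, the aldolase best known from astrocytes (chr11:78324198-78326760), was at 141, 148, 157 and 158 FPKM in dopaminergic libraries, against 576, 383, 566, 533 and 557 FPKM in whole midbrain. It was 3.46-fold lower in the neurons (log2 fold change -1.77, SE 0.13, limma adjusted p = 8.1e-07), without overlap. The ratio of Aldoc to Aldoa was 0.158 ± 0.0191 in dopaminergic neurons and 1.22 ± 0.0869 in whole midbrain (SD, n = 4 and 5). The difference of that ratio was the largest of the 18 ratios examined, at -2.94 on the log2 scale (two-sided exact permutation test, p = 0.00794, adjusted over the 18 ratios 0.0204). A p of 0.00794 is the smallest that 4 libraries against 5 allow. Astrocyte markers, which moved the same way as Aldoc, summed to 33.0 to 50.02 FPKM in dopaminergic libraries and to 825 to 887 FPKM in whole midbrain, and their part in the value of Aldoc was not tested. In bulk RNA, fewer cells of a type and less RNA per cell cannot be told apart.

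Of the 8 genes of upper glycolysis tested, 3 were higher and 3 lower, with 2 higher and 5 lower under TPM and 0 higher and 4 lower under quantile normalization. Besides Aldoa, the higher genes were Gpi1, which interconverts glucose and fructose phosphates, and Tpi1, which interconverts the triose phosphates. Gpi1 was at 198 ± 17.1 FPKM in dopaminergic neurons and 105 ± 3.51 FPKM in whole midbrain (SD, n = 4 and 5), a 1.90-fold rise (limma adjusted p = 3.33e-06) that was not called under TPM or quantile normalization. Tpi1 was at 303, 303, 333 and 300 FPKM in dopaminergic libraries, against 136, 231, 144, 133 and 130 FPKM in whole midbrain. All 4 dopaminergic libraries lay above all whole midbrain libraries, of which library 2 was by far the highest. The rise of Tpi1 was 2.01-fold (log2 fold change 1.03, SE 0.16, limma adjusted p = 0.000218).

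The remaining entry and commitment steps showed no common rise. Hk1, the main brain hexokinase, which traps glucose as its phosphate, was at 24.2 to 29.6 FPKM in dopaminergic libraries and 23.4 to 29.9 FPKM in whole midbrain, and was not called (limma adjusted p = 0.797). After a correction for exonic length Hk1 was called higher (log2 fold change 0.34, limma adjusted p = 0.00607), and under TPM and quantile normalization it was called lower. Hk2, the second hexokinase, did not pass the filter: it was at 0.00762, 0.0391, 0.0355 and 0.326 FPKM in dopaminergic libraries and at 0.273 to 0.513 FPKM in whole midbrain. The groups overlapped through dopaminergic library 4. The ratio of Hk2 to Hk1 was called lower only when that library or the pseudocount was changed: without dopaminergic library 4 its log2 difference was -0.46 (exact permutation test, adjusted p = 0.0402), and with a pseudocount of 0.1 it was -1.44 (adjusted p = 0.0476). Phosphofructokinase, the main control step of glycolysis, has 3 subunit genes, of which 2 fell. Pfkm, the muscle-type subunit (chr15:98092589-98132447), was at 43.2 to 54.7 FPKM in dopaminergic libraries and 61.4 to 84.7 FPKM in whole midbrain and fell 1.35-fold (limma adjusted p = 0.00618). Pfkp, the platelet-type subunit, was at 21.9 ± 1.66 and 34.1 ± 1.82 FPKM and fell 1.56-fold (limma adjusted p = 3.04e-05). The length correction ended the call of Pfkp (log2 fold change -0.10, limma adjusted p = 0.234). Pfkl, the liver-type subunit, was at 11.3 ± 0.958 FPKM in dopaminergic neurons and 10.1 ± 0.310 FPKM in whole midbrain and was not called (limma adjusted p = 0.105). Pfkl was called higher after that correction (log2 fold change 0.35) and after median centring (0.21), with limma adjusted p of 0.00137 and 0.034. Under TPM it was called lower (log2 fold change -0.53, limma adjusted p = 0.00203). The ratio of Pfkl to Pfkm was therefore higher in every dopaminergic library, at 0.202 to 0.241, than in any whole midbrain library, at 0.116 to 0.163 (log2 difference 0.56, exact permutation p = 0.00794, adjusted over the 18 ratios 0.0204). By FPKM, Pfkm had the highest level of the 3 in both groups.

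**Figure D2:**
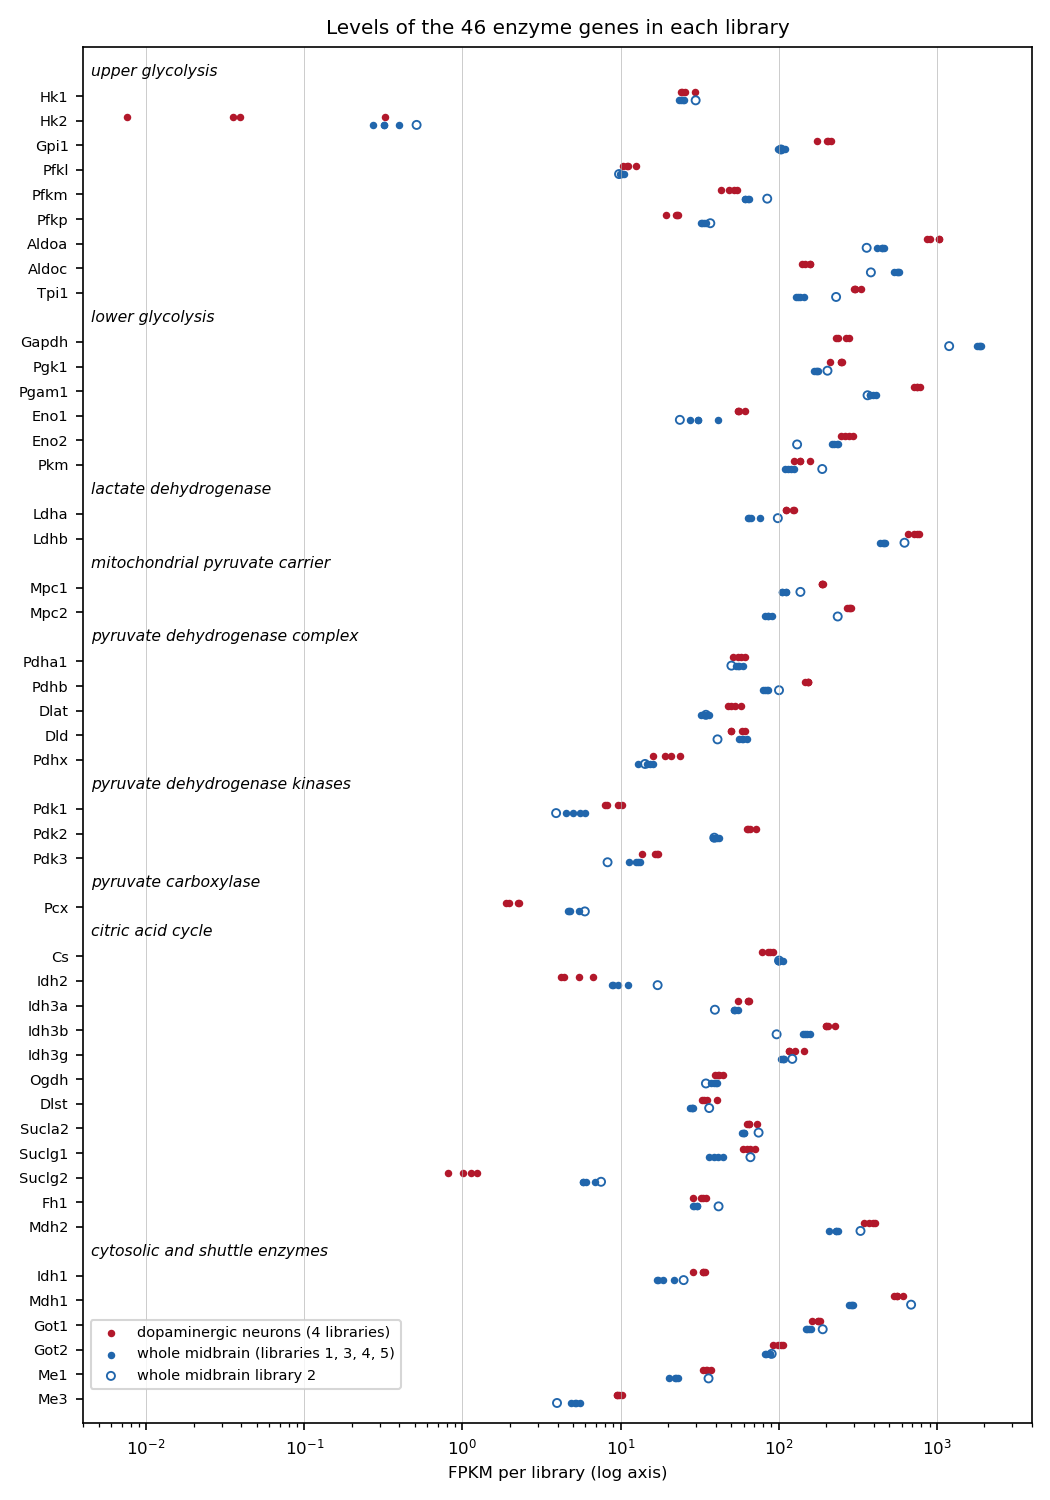
FPKM of the 46 enzyme genes in each library on a log axis, grouped by step, with dopaminergic neurons (4 libraries) in red above whole midbrain (5 libraries) in blue, and whole midbrain library 2 as an open circle. Gapdh, Aldoc, Pcx and Suclg2 show red points well to the left of blue ones, and the open circle often lies away from the filled blue points.

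Lower glycolysis held the largest fall. Gapdh encodes glyceraldehyde-3-phosphate dehydrogenase, the first enzyme of the energy-yielding steps, and is often used to scale expression measurements. It was at 267, 238, 278 and 231 FPKM in dopaminergic libraries, against 1873, 1197, 1846, 1790 and 1916 FPKM in whole midbrain. Every dopaminergic library lay far under the lowest whole midbrain library. Gapdh was 6.80-fold lower in the neurons (log2 fold change -2.75, SE 0.16, limma adjusted p = 1.43e-07). Among the 46 genes it ranked ninth by mean FPKM in dopaminergic neurons and first in whole midbrain.

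Of 77 near-identical copies of Gapdh in the annotation (at least 95 percent identity over at least 300 bases), 74 were pseudogenes and 3 had a row, of which 1 was listed at 0 in every library. Copies with no row were not measured. Gm12070 was at 12.7 ± 0.915 FPKM in dopaminergic neurons and 374 ± 78.5 FPKM in whole midbrain (SD, n = 4 and 5). It was lower in the neurons by a larger factor than Gapdh itself. Gapdh summed with the copies that had a row was at 267 ± 23.4 FPKM in dopaminergic neurons and 2101 ± 376 FPKM in whole midbrain, 7.87-fold lower (log2 fold change -2.95, limma adjusted p = 1.1e-07). How the authors' counting divided reads among the copies is not given in the sources used here, so the level of the single row is uncertain.

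The other genes of lower glycolysis were higher or not called. Of 6 tested, 3 were higher and 1 lower, with 0 higher and 3 lower under TPM and 1 higher and 3 lower under quantile normalization. Pgam1, a phosphoglycerate mutase (chr19:41911871-41918665), was at 722 to 783 FPKM in dopaminergic libraries and 365 to 413 FPKM in whole midbrain and rose 1.95-fold (limma adjusted p = 4.16e-06), although its log2 fold change was -0.20 under quantile normalization. Pgk1, the phosphoglycerate kinase, was at 241 ± 18.8 FPKM in dopaminergic neurons and 179 ± 14.2 FPKM in whole midbrain, a 1.34-fold rise (limma adjusted p = 0.00192), and was called lower under TPM and quantile normalization. Both enolases turn 2-phosphoglycerate into phosphoenolpyruvate, Eno2 being the isozyme known from neurons. Eno2 was at 247 to 297 FPKM in dopaminergic libraries and 131 to 238 FPKM in whole midbrain, without overlap, and was just outside the threshold (limma adjusted p = 0.0506). Without whole midbrain library 2, its lowest library, Eno2 was called higher (log2 fold change 0.25, limma adjusted p = 0.00229). It was also called without whole midbrain library 1 or 3, with limma adjusted p of 0.0447 and 0.0494. Under TPM and quantile normalization the log2 fold change of Eno2 was -0.29 and -0.53, not called. Pkm, pyruvate kinase, was at 124 to 158 FPKM in dopaminergic libraries and 109 to 189 FPKM in whole midbrain and was not called (limma adjusted p = 0.569). Without whole midbrain library 2, the highest for Pkm, its log2 fold change was 0.24 (limma adjusted p = 0.0103). Under TPM and quantile normalization Pkm was called lower, with log2 fold changes of -0.60 and -0.65.

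Eno1 is split over several rows. The row named Eno1 (chr4:150237197-150248873) was at 57.0 ± 2.96 FPKM in dopaminergic neurons and 30.8 ± 6.43 FPKM in whole midbrain (SD, n = 4 and 5) and rose 1.85-fold (limma adjusted p = 0.000154). A row named Eno1b that covers 98.9 percent of the same span was at 313 ± 21.5 and 206 ± 38.8 FPKM, and a further Eno1b row, a near-identical copy on chromosome 18, was at 62.1 ± 4.32 and 40.8 ± 2.94 FPKM. Their sum with Eno1 was 433 ± 24.9 FPKM in dopaminergic neurons and 278 ± 41.1 FPKM in whole midbrain, 1.56-fold higher (log2 fold change 0.65, limma adjusted p = 0.000983). The ratio of Eno1 to Eno2 was higher in the neurons by 0.47 on the log2 scale (exact permutation p = 0.0159, adjusted over the 18 ratios 0.0357), and with the copies added by 0.24 (adjusted p = 0.0536 in the exact permutation test), which ends the call. That ratio was also not called without any 1 of the 4 dopaminergic libraries (exact permutation test, adjusted p of 0.0714 to 0.0804). Nor was it called with a pseudocount of 5 (exact permutation test, adjusted p = 0.0857). Without whole midbrain library 1, 3, 4 or 5 it was not called either (exact permutation test, adjusted p of 0.0571 to 0.0643).

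**Figure D3:**
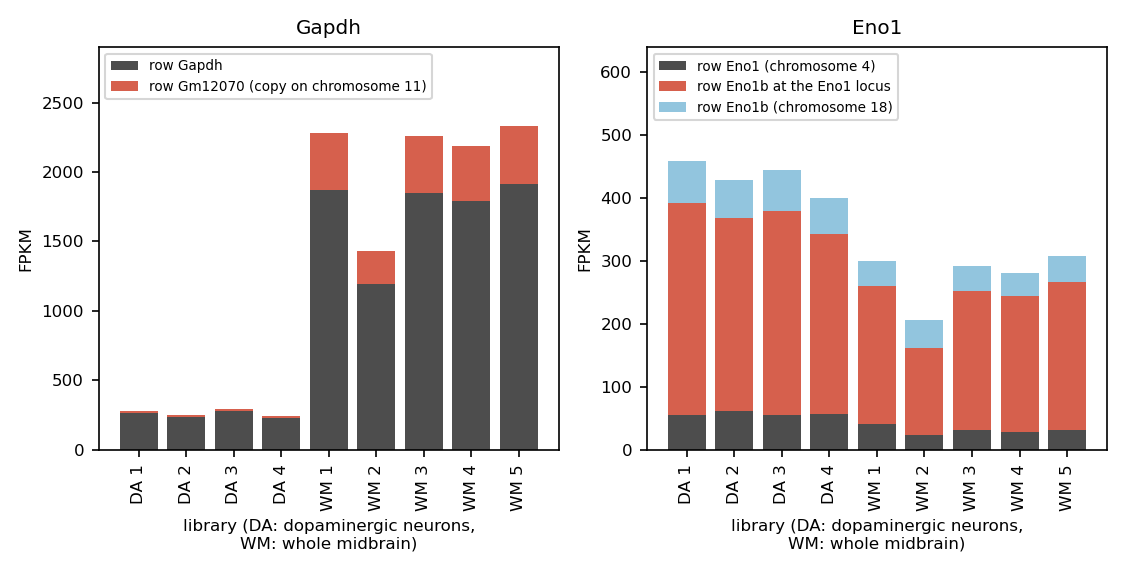
FPKM in each library (bars stacked from 0), dopaminergic neurons left of whole midbrain: left, Gapdh with its copy Gm12070; right, Eno1 with the 2 rows named Eno1b. The stacked Gapdh bars are lower in all 4 dopaminergic libraries, and the stacked Eno1 bars are higher, with the Eno1b row at the Eno1 locus as the largest piece.

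On FPKM as deposited, the total over glycolysis and lactate dehydrogenase hid these opposite shifts. The 17 genes summed to 4285 ± 253 FPKM in dopaminergic neurons and 4571 ± 302 FPKM in whole midbrain (SD, n = 4 and 5). Without Gapdh the other 16 summed to 4031 ± 232 FPKM in dopaminergic neurons and 2847 ± 86.2 FPKM in whole midbrain, 1.42-fold higher. These sums are of FPKM as deposited and depend on the scaling. FPKM over all rows also summed higher in dopaminergic libraries, at 506466 to 521822, than in whole midbrain, at 309275 to 409130. The enzyme sums were not taken as shares of that total, so the 1.42-fold difference does not show a higher share in the neurons. In dopaminergic neurons Aldoa, Pgam1, Ldhb, Mdh1 and Mdh2 had the highest mean FPKM of the 46 genes, in that order. In whole midbrain the order was Gapdh, Aldoc, Ldhb, Aldoa and Pgam1.

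Both lactate dehydrogenase genes rose, with none called under TPM and 0 higher and 1 lower (Ldhb) under quantile normalization. Ldhb, whose subunit predominates in heart-type isozymes (chr6:142490249-142507943), was at 746, 721, 770 and 654 FPKM in dopaminergic libraries and 465, 625, 468, 435 and 455 FPKM in whole midbrain, a 1.48-fold rise (limma adjusted p = 0.00215). After the length correction Ldhb was not called (limma adjusted p = 0.0705). Ldha, whose subunit predominates in muscle-type isozymes, was at 118 ± 6.71 FPKM in dopaminergic neurons and 74.1 ± 14.6 FPKM in whole midbrain, a 1.59-fold rise (limma adjusted p = 0.000755). Neither gene overlapped between groups. The ratio of Ldhb to Ldha was 6.14 ± 0.275 in dopaminergic neurons and 6.65 ± 0.448 in whole midbrain, and its difference was not called (exact permutation p = 0.0952, adjusted over the 18 ratios 0.143).

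The mitochondrial pyruvate carrier, a complex of the proteins of Mpc1 and Mpc2 in the inner membrane, rose in both subunits, with 1 of 2 called higher under TPM and under quantile normalization. Mpc2 (chr1:165461208-165481214) was at 280, 284, 271 and 287 FPKM in dopaminergic libraries and at 90.3, 236, 86.1, 81.8 and 85.7 FPKM in whole midbrain. Library 2 of whole midbrain lay close under the dopaminergic libraries and far from its own group. The rise was 2.42-fold (log2 fold change 1.41, SE 0.28, limma adjusted p = 0.00113), and without that library the log2 fold change was 1.70 (limma adjusted p = 1.19e-10). Mpc1 was at 187 to 191 FPKM in dopaminergic libraries and 105 to 137 FPKM in whole midbrain and rose 1.65-fold (limma adjusted p = 4.53e-05). The ratio of Mpc2 to Mpc1 was 1.49 ± 0.0279 in dopaminergic neurons and 0.980 ± 0.416 in whole midbrain (exact permutation test, adjusted over the 18 ratios p = 0.0779). Without library 2 its log2 difference was 0.90 (adjusted p = 0.0429, exact permutation test).

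In the pyruvate dehydrogenase complex, 3 of 5 genes were higher and none lower as deposited, whereas 0 were higher and 2 lower under TPM and under quantile normalization. The complex joins decarboxylation of pyruvate (E1, from Pdha1 and Pdhb), transfer of the acetyl group (E2, from Dlat), reoxidation of the lipoyl arm (E3, from Dld) and a binding protein (Pdhx). Pdhb (chr14:8165991-8172992) was at 148 to 154 FPKM in dopaminergic libraries and 80.2 to 100.5 FPKM in whole midbrain and rose 1.75-fold (limma adjusted p = 8.49e-06). Its partner Pdha1 was at 51.4 to 61.5 FPKM in dopaminergic libraries and 50.3 to 59.5 FPKM in whole midbrain and was not called (limma adjusted p = 0.663). The ratio of Pdhb to Pdha1 was accordingly 2.70 ± 0.157 in dopaminergic neurons and 1.59 ± 0.232 in whole midbrain, without overlap (exact permutation p = 0.00794, adjusted over the 18 ratios 0.0204). Dlat rose 1.53-fold and Pdhx 1.36-fold, with limma adjusted p of 3.83e-05 and 0.00626. Dld was at 54.8 ± 5.63 FPKM in dopaminergic neurons and 55.6 ± 8.43 FPKM in whole midbrain and was not called (limma adjusted p = 0.947). The 2 genes called lower under both other scalings were Pdha1 and Dld.

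The 3 pyruvate dehydrogenase kinases, which switch the complex off by phosphorylation, all rose, with none called under TPM and Pdk1 called higher under quantile normalization. Pdk2 had the highest level, at 63.1 to 72.2 FPKM in dopaminergic libraries and 38.4 to 41.7 FPKM in whole midbrain, a 1.66-fold rise (limma adjusted p = 4.78e-06). Pdk1 was at 8.01 to 10.2 FPKM in dopaminergic libraries and 3.91 to 5.95 FPKM in whole midbrain, and Pdk3 at 13.8 to 17.2 and 8.28 to 13.3 FPKM. Pdk3 was not called after the length correction (limma adjusted p = 0.0504). None of the 3 overlapped between groups. Their ratios to Pdk2 were not called to differ (exact permutation test, adjusted p of 0.849 for Pdk1 and 0.162 for Pdk3), with log2 differences of 0.03 and -0.27. Without whole midbrain library 2 the difference for Pdk3 was -0.38 and was called (exact permutation test, adjusted p = 0.0429). Pdk4, a kinase outside the 46 genes, went the other way, at 0.520 ± 0.135 FPKM in dopaminergic neurons and 2.95 ± 0.482 FPKM in whole midbrain (log2 fold change -1.37, limma adjusted p = 2.72e-06).

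Pcx, pyruvate carboxylase (chr19:4510472-4621752), was at 2.25, 2.27, 1.96 and 1.89 FPKM in dopaminergic libraries, against 5.45, 5.95, 4.77, 4.69 and 4.69 FPKM in whole midbrain. It fell 2.44-fold in FPKM (log2 fold change -0.98 with the pseudocount of 1, SE 0.092, limma adjusted p = 4.69e-06), without overlap and under all 3 scalings. Set against Pdha1, the ratio was 0.0371 ± 0.00170 in dopaminergic neurons and 0.0938 ± 0.0156 in whole midbrain (log2 difference -1.02, exact permutation p = 0.00794, adjusted over the 18 ratios 0.0204). The astrocyte markers given beside Aldoc fell with Pcx too, and their part in it was not tested.

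Of 12 citric acid cycle genes tested, 5 were higher, 3 lower and 4 not called, with 0 higher and 8 lower under both TPM and quantile normalization. Of all genes tested, 38.3 percent were higher and 36.0 percent lower, with 15.9 and 59.1 percent under TPM and 38.1 and 31.3 percent under quantile normalization. The largest difference was in succinyl-CoA ligase, whose shared alpha subunit comes from Suclg1 and whose beta subunit comes from Sucla2 (for ADP) or Suclg2 (for GDP). Suclg2 (chr6:95473009-95718846) was at 0.814, 1.14, 1.01 and 1.23 FPKM in dopaminergic libraries, against 5.80, 7.53, 6.85, 5.75 and 6.06 FPKM in whole midbrain. It was 6.09-fold lower in FPKM (log2 fold change -1.85 with the pseudocount, SE 0.10, limma adjusted p = 1.22e-07), and no library of either group came near the other. Sucla2 was at 63.0 to 72.9 FPKM in dopaminergic libraries and 58.3 to 74.7 FPKM in whole midbrain, not called (limma adjusted p = 0.409). Under TPM and quantile normalization Sucla2 was called lower (log2 fold changes of -0.61 and -0.49). The ratio of Suclg2 to Sucla2 was 0.0160 ± 0.00341 in dopaminergic neurons and 0.102 ± 0.00759 in whole midbrain (log2 difference -1.93, exact permutation p = 0.00794, adjusted over the 18 ratios 0.0204). Suclg1 was at 59.6 to 70.8 FPKM in dopaminergic libraries and at 36.1 to 44.3 FPKM in whole midbrain apart from library 2, which was at 66.3 FPKM. It rose 1.43-fold (limma adjusted p = 0.0106).

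Isocitrate dehydrogenase has NAD-dependent mitochondrial subunits (Idh3a, Idh3b and Idh3g) and NADP-dependent enzymes of mitochondria (Idh2) and cytosol (Idh1). Idh2 (chr7:80094847-80115350) was at 4.18, 5.48, 6.66 and 4.41 FPKM in dopaminergic libraries and 11.1, 17.2, 8.93, 9.70 and 8.80 FPKM in whole midbrain, a 2.15-fold fall (limma adjusted p = 0.00114). Idh1 went the other way, at 28.9 to 34.2 FPKM in dopaminergic libraries and 16.9 to 25.1 FPKM in whole midbrain, 1.63-fold higher (limma adjusted p = 0.000398) but with a log2 fold change of 0.02 under TPM. Neither gene overlapped between groups. The ratio of Idh1 to Idh2 was 6.51 ± 1.60 in dopaminergic neurons and 1.84 ± 0.213 in whole midbrain (log2 difference 1.64, exact permutation p = 0.00794, adjusted over the 18 ratios 0.0204). Among the NAD-dependent subunits, Idh3b rose 1.5-fold and Idh3a 1.23-fold (limma adjusted p of 0.00283 and 0.0264), while Idh3g, at 116 to 144 FPKM in dopaminergic libraries and 103 to 122 FPKM in whole midbrain, was not called (limma adjusted p = 0.0746). Idh3a was not called without dopaminergic library 1, 2 or 3 (limma adjusted p of 0.0641 to 0.0693). Without whole midbrain library 2 Idh3g was called higher (log2 fold change 0.23, limma adjusted p = 0.00745). Under TPM and quantile normalization Idh3g was called lower (log2 fold changes of -0.50 and -0.53), and Idh3a and Idh3b had negative values that were not called. Idh3b stood higher against Idh3a in the neurons, at 3.38 ± 0.330 against 2.75 ± 0.166 in whole midbrain (log2 difference 0.30, exact permutation p = 0.00794, adjusted over the 18 ratios 0.0204).

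Cs, citrate synthase, which joins acetyl-CoA to oxaloacetate, was at 78.4 to 92 FPKM in dopaminergic libraries and 99.5 to 107 FPKM in whole midbrain and fell 1.18-fold (limma adjusted p = 0.0137). Cs was not called after median centring or the length correction (limma adjusted p of 0.0734 and 0.284). Mdh2, the malate dehydrogenase of mitochondria, was at 380 ± 26.3 FPKM in dopaminergic neurons and 247 ± 46.8 FPKM in whole midbrain and rose 1.54-fold (limma adjusted p = 0.00152). Under quantile normalization Mdh2 was called lower (log2 fold change -0.36, limma adjusted p = 0.0021), and under TPM its value was -0.07. Dlst, the transferase of the 2-oxoglutarate dehydrogenase complex, was at 33.0 to 40.8 FPKM in dopaminergic libraries and 27.4 to 36.4 FPKM in whole midbrain and was just inside the threshold (limma adjusted p = 0.0456). Leaving out dopaminergic library 1, 2 or 3 or whole midbrain library 1, 3, 4 or 5 ended its call (limma adjusted p of 0.056 to 0.14). Under TPM Dlst was called lower (log2 fold change -0.44), and under quantile normalization its value was -0.12, not called. Ogdh, the first enzyme of that complex, and Fh1, fumarase, had log2 fold changes of 0.12 and 0.02 and were not called (limma adjusted p of 0.148 and 0.90). After the length correction Ogdh was called higher (log2 fold change 0.24, limma adjusted p = 0.0103). Ogdh and Fh1 were called lower under TPM (log2 fold changes of -0.57 and -0.68) and under quantile normalization (-0.32 and -0.35).

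Of the 6 cytosolic and shuttle enzymes, 5 were higher and none lower, with 0 higher and 2 lower under TPM and 2 higher and 2 lower under quantile normalization. Mdh1, the cytosolic malate dehydrogenase of the malate-aspartate shuttle (chr11:21556692-21571934), was at 612, 562, 563 and 534 FPKM in dopaminergic libraries and at 277, 688, 288, 289 and 296 FPKM in whole midbrain. Whole midbrain library 2 was the highest of all 9 and made the groups overlap. With all libraries Mdh1 had a log2 fold change of 0.73 (SE 0.25, limma adjusted p = 0.024), and without library 2 of 0.98 (limma adjusted p = 1.15e-08). Without any 1 of the other whole midbrain libraries, or without dopaminergic library 1 or 3, Mdh1 was just outside the threshold (limma adjusted p of 0.0501 to 0.0597). Under TPM and quantile normalization its log2 fold change was 0.03 and -0.34, not called. Me3, a mitochondrial malic enzyme that makes NADPH, was at 9.48 to 10.2 FPKM in dopaminergic libraries and 3.97 to 5.58 FPKM in whole midbrain, a 1.97-fold rise (limma adjusted p = 1.06e-05). Me1, its cytosolic counterpart, was at 35.1 ± 1.61 and 24.7 ± 6.41 FPKM and rose 1.42-fold (limma adjusted p = 0.00888). Of the aspartate aminotransferases of the same shuttle, mitochondrial Got2 rose 1.16-fold (limma adjusted p = 0.0231) and cytosolic Got1, at 1.08 times its whole midbrain mean, was not called (limma adjusted p = 0.289). Got2 was not called without dopaminergic library 1 or 3 or whole midbrain library 4 or 5 (limma adjusted p of 0.0573 to 0.0739). Both Got1 and Got2 were called lower under TPM (log2 fold changes of -0.59 and -0.48) and under quantile normalization (-0.70 and -0.44).

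**Figure D4:**
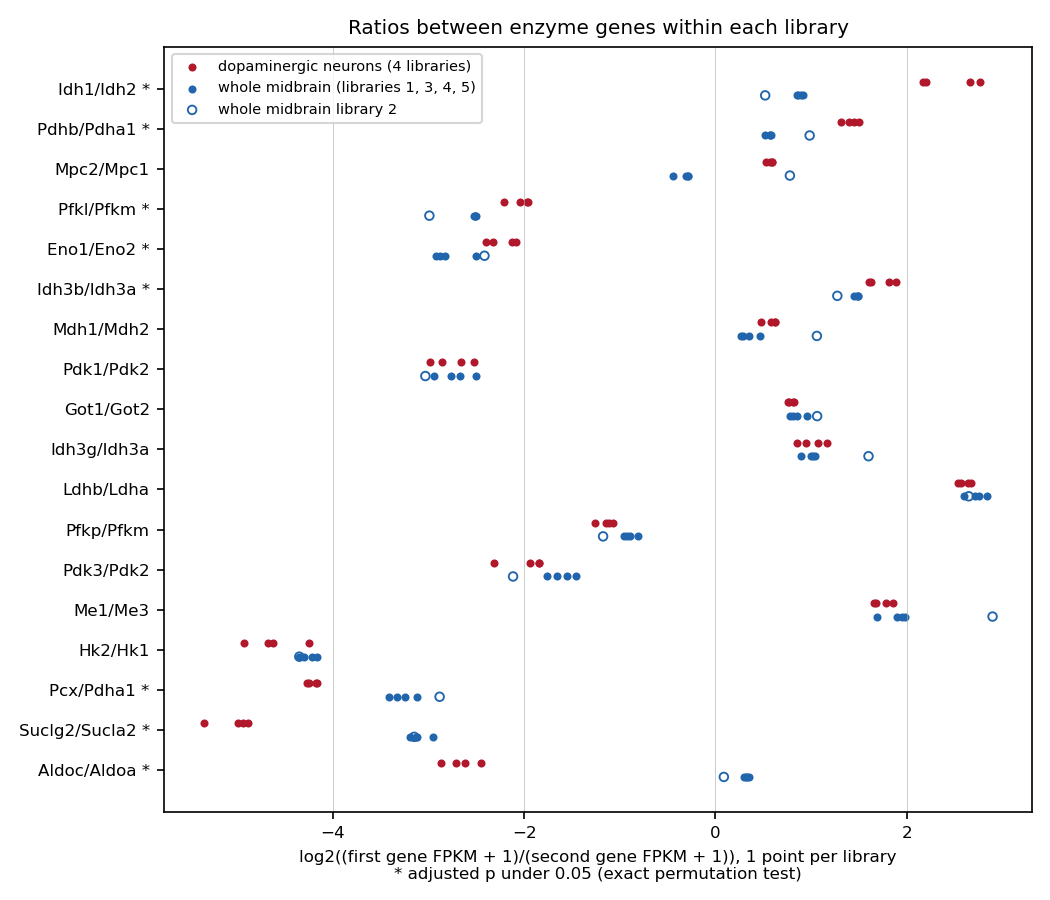
Log2 ratio of 18 pairs of enzyme genes within each library, dopaminergic neurons in red above whole midbrain in blue, with whole midbrain library 2 as an open circle and an asterisk at an adjusted p under 0.05. In 8 pairs the groups do not overlap, with Aldoc/Aldoa (-2.94) and Suclg2/Sucla2 (-1.93) furthest apart to the left and Idh1/Idh2 (1.64) to the right.

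Of the 18 ratios, 8 differed at an adjusted p under 0.05, and these 8 were also the ones without overlap. The 2 statements are not separate support, because groups without overlap give this test a p at or near its smallest. Without whole midbrain library 1, 3, 4 or 5, each in turn, 0 ratios passed, and 4 libraries against 4 allow no p under 0.0286. The lowest adjusted p was then 0.0571 to 0.0643 (exact permutation test). Without whole midbrain library 2, at the same group sizes, 12 passed. The 4 added ones were Mpc2 to Mpc1, Pfkp to Pfkm, Pdk3 to Pdk2 and Mdh1 to Mdh2. The ratios of Hk2 to Hk1, Pfkp to Pfkm, Mdh1 to Mdh2, Idh3g to Idh3a, Got1 to Got2 and Me1 to Me3 were not called with all libraries (exact permutation test, adjusted p of 0.0779, 0.0779, 0.714, 0.714, 0.162 and 0.162).

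Library 2 of whole midbrain was the highest of its group for 26 of the 46 genes and the lowest for 15, at 0.574 to 2.75 times the mean of the other whole midbrain libraries. Without it, 31 enzyme genes were called higher and 8 lower, where 43.6 and 38.4 percent of all 12959 genes tested were. The genes that then became called were Eno2, Pkm, Idh3g, Sucla2 and Got1, and levels did not overlap for 38 of the 46 genes, 30 of them higher in every dopaminergic library. The matching share of all genes was not computed without library 2. With all libraries 32.6 percent of all genes tested lay wholly above and 31.8 percent wholly below. The median coefficient of variation of the enzyme genes was 7.48 percent in dopaminergic libraries and 12.3 percent in whole midbrain, or 4.04 percent there without library 2.

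Other genes of the same pathways were taken from lists of 66 names, of which 65 were in the table and 52 passed the filter. Of the 52, 21 were higher and 16 lower, with 7 and 33 under TPM and 17 and 16 under quantile normalization, and their median log2 fold change of 0.04 equalled that of all genes tested. The shares of all genes tested were 38.3 percent higher and 36.0 percent lower, 15.9 and 59.1 percent under TPM, and 38.1 and 31.3 percent under quantile normalization. In glucose and lactate transport 2 of 6 were higher and 2 lower, with 1 and 5 under TPM and 1 and 3 under quantile normalization. Slc2a1, the glucose transporter of the blood-brain barrier and glia, was at 5.45, 5.36, 6.35 and 6.00 FPKM in dopaminergic libraries, against 47.6, 45.5, 47.3, 50.6 and 49.8 FPKM in whole midbrain, 8.31-fold lower and without overlap (limma adjusted p = 1.01e-09). Endothelial markers moved the same way, at 0.589 to 1.63 FPKM in sum in dopaminergic libraries and 62.2 to 108 FPKM in whole midbrain, and their part in it was not tested. Slc2a3, the neuronal glucose transporter, was at 22.5 ± 1.39 FPKM in dopaminergic neurons and 24.9 ± 5.99 FPKM in whole midbrain and was not called (limma adjusted p = 0.623). Among the lactate carriers Slc16a1 fell 3.57-fold and Slc16a3 rose 7.14-fold, to 3.87 ± 0.762 FPKM in dopaminergic neurons against 0.542 ± 0.210 FPKM in whole midbrain. Slc16a7, the neuronal lactate carrier, was at 3.55 ± 0.457 and 3.99 ± 1.12 FPKM and was not called (limma adjusted p = 0.621). Both Slc2a3 and Slc16a7 were called lower without whole midbrain library 2 (log2 fold changes of -0.28 and -0.27, limma adjusted p of 0.00146 and 0.0254). Under TPM both were called lower too (log2 fold changes of -0.80 and -0.75, limma adjusted p of 0.0134 and 0.0248). Under quantile normalization neither was called, with log2 fold changes of -0.39 and 0.21.

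In the rest of the citric acid cycle 3 of 8 genes were higher and 3 lower, with 1 and 5 under TPM and 1 and 4 under quantile normalization. Sdhb and Sdhd, subunits of succinate dehydrogenase, rose 2.06-fold and 2.29-fold (limma adjusted p of 0.0041 and 1.63e-07). The call of Sdhb was lost under TPM (limma adjusted p = 0.0533) and quantile normalization (limma adjusted p = 0.0806). Sdhb had whole midbrain library 2 at 162 FPKM, inside the range of 151 to 167 FPKM of the dopaminergic libraries, and the other whole midbrain libraries at 54.3 to 57.4 FPKM. Of 9 shuttle carriers and enzymes 6 were higher and 3 lower, with 2 and 4 under TPM and 5 and 2 under quantile normalization. Among them were Slc25a1, the citrate carrier, which rose 3.22-fold, and Gpd1, the cytosolic glycerol-3-phosphate dehydrogenase, which fell 5.96-fold. In the pentose phosphate pathway 4 of 7 were higher and none lower, with 1 and 3 under TPM and 2 and 0 under quantile normalization. Pgls, the lactonase of that pathway, rose 3.95-fold, and Rpe, an epimerase, 1.49-fold, although its log2 fold change was -0.13 under TPM.

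Of 10 genes of glycogen and gluconeogenesis 3 were higher and 4 lower, with 2 and 7 under TPM and 4 and 4 under quantile normalization. Pygm, the muscle-type glycogen phosphorylase, which is also known from astrocytes, was at 1.99 ± 0.350 FPKM in dopaminergic neurons and 13.9 ± 0.830 FPKM in whole midbrain (SD, n = 4 and 5), 7.01-fold lower (limma adjusted p = 1.68e-08). Gbe1, the glycogen branching enzyme, rose 2.57-fold. Of 7 regulators 1 was higher and 3 lower, with 0 and 5 under TPM and 2 and 3 under quantile normalization. Pfkfb2, which makes the activator of phosphofructokinase, fell 2.77-fold. Of 5 other glycolytic isoforms 2 were higher and 1 lower, with 0 and 4 under TPM and 2 and 0 under quantile normalization. Pgam2, a phosphoglycerate mutase, was at 0.830 ± 0.214 FPKM in dopaminergic neurons and 1.81 ± 0.466 FPKM in whole midbrain, although its log2 fold change was 0.03 under quantile normalization. The other pathway genes named here as higher or lower without a p of their own each had a limma adjusted p of at most 0.00617.

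Several enzyme genes share exon sequence with a neighbour, and no source here says that strand was kept. At least 100 bases were shared between Hk1 and Hk1os, Gpi1 and Gm26762, Pfkm and Gm26513, Pfkp and Pitrm1, Pkm and Gm49759, Mpc1 and 4930506C21Rik, Pdha1 and Map3k15, Got2 and Gm45760, and Me3 and A230065N10Rik. For these 9 genes the division of reads between neighbours is uncertain. By the rule given for Gapdh, 13 of the 46 genes had a near-identical copy in the annotation. Besides Gapdh and Eno1 these were Gpi1, Tpi1, Pgk1, Pgam1, Pkm, Ldha, Ldhb, Pdhb, Suclg2, Got2 and Me1. Their copies had no row, and the division of reads is uncertain for them too.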

How the data were processed

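The series holds 9 libraries, 4 of midbrain dopaminergic neurons and 5 of whole midbrain, grouped by their labels. Per the labels' protocols, cDNA was amplified from nanogram amounts of RNA and sequenced on Illumina instruments. The deposited values are FPKM made by the authors, and TopHat2 (version 2.0.8), Cufflinks (version 2.1.1) and the build mm10 are named in the submitters' processing notes. Which annotation was used, and whether strand was kept, is not given in the sources used here. Of the deposited FPKM values above 0, 0.34 percent in dopaminergic libraries and 99.16 percent in whole midbrain libraries have more than 6 significant digits, so the files of the groups differ in form, and that difference cannot be told apart from the groups. Depth was estimated from 738 candidate single-exon genes, of which 74 to 120 per library had a low value above 0. The value shared within 1 percent by the largest number of these, 6 to 15 per library, was taken as 1 read. A fragment of 200 bases was assumed. The depth so estimated is rough and gives the range of precision only, and no counting interval is given because the table holds no counts.

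Differences were tested two-sided on log2(FPKM + 1) by limma (version 3.58.1, R 4.3.3) with its trend option, 7 residual and 3 prior degrees of freedom, over the 13106 genes whose mean reached 1 FPKM, with Benjamini-Hochberg adjustment over all of them and a threshold of 0.05. Fold changes on that scale understate the change of low genes, and plain fold values are ratios of mean FPKM. Ratios of 18 pairs used log2((A + 1)/(B + 1)) per library and a two-sided exact permutation test over 126 splits. Copies were found by aligning transcripts of the GENCODE annotation of GRCm38, and promoter windows came from RefSeq (GRCm38.p6). Gene spans are the table's, counted from 1. The script was tested on simulated data. Other steps ran in Python 3.11.15 with SciPy 1.17.1, pandas 2.3.3, NumPy 2.4.6 and matplotlib 3.10.9.

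The rule for named genes took all 46 enzyme genes, the 2 passing genes with the largest change in each other list and a few transporters and enzymes; some of these are not reported here. The members and lists were chosen with earlier results of these data known. The alternatives were pseudocounts of 0.1 and 5, other filters, quantile normalization, median centring, TPM without 1297 small RNA and mitochondrial rows, no trend, library weights, a replicate block, a length correction by loess (span 0.5) and leaving out each library. Adding near-identical copies was chosen after seeing the data. Same-numbered libraries of the groups did not deviate together (Pearson's r across genes -0.05 to 0.019, against -0.095 to 0.079 for unlike numbers). No pairing by number was seen, but these values cannot exclude one.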

Additional observations from a re-analysis of the deposited data

Results flagged for a closer look

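A value is listed here where 1 library lay far from the rest of its group, by Dixon's test at the 95 percent level. Chance flags about 1 in 20 groups, and 42 of 128 groups of values were listed, 24 of 46 enzyme genes and 9 of 18 ratios through whole midbrain library 2.

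High values in whole midbrain library 2 were Hk1 at 29.9 FPKM (others 23.4 to 25), Pfkm at 84.7 FPKM (others 61.4 to 64.9), Tpi1 at 231 FPKM (others 130 to 144) and Pgk1 at 204 FPKM (others 167 to 177). Also high in that library were Pkm at 189 FPKM (others 109 to 124), Ldhb at 625 FPKM (others 435 to 468), Mpc1 at 137 FPKM (others 105 to 112) and Mpc2 at 236 FPKM (others 81.8 to 90.3). The same library was high for Pdhb at 100.5 FPKM (others 80.2 to 85.7), Idh2 at 17.2 FPKM (others 8.8 to 11.1), Idh3g at 122 FPKM (others 103 to 108) and Dlst at 36.4 FPKM (others 27.4 to 28.9). It was high too for Sucla2 at 74.7 FPKM (others 58.3 to 60.5), Suclg1 at 66.3 FPKM (others 36.1 to 44.3), Fh1 at 41.7 FPKM (others 28.6 to 30.6) and Mdh2 at 329 FPKM (others 210 to 236). Further high values there were Mdh1 at 688 FPKM (others 277 to 296) and Me1 at 36 FPKM (others 20.2 to 23.1). Low values in whole midbrain library 2 were Aldoc at 383 FPKM (others 533 to 576), Gapdh at 1197 FPKM (others 1790 to 1916), Eno2 at 131 FPKM (others 216 to 238) and Dld at 41 FPKM (others 56.5 to 62.7). Also low there were Idh3a at 39.5 FPKM (others 51.8 to 55.2) and Idh3b at 97 FPKM (others 144 to 157). Among the log2 ratios, whole midbrain library 2 stood apart for Pfkl/Pfkm at -2.99 (others -2.52 to -2.50), Aldoc/Aldoa at 0.089 (others 0.30 to 0.35) and Mpc2/Mpc1 at 0.78 (others -0.44 to -0.28). It also stood apart for Pdhb/Pdha1 at 0.99 (others 0.52 to 0.58), Idh1/Idh2 at 0.52 (others 0.85 to 0.91) and Idh3b/Idh3a at 1.27 (others 1.45 to 1.49). The last ratios of that library were Idh3g/Idh3a at 1.60 (others 0.89 to 1.05), Mdh1/Mdh2 at 1.06 (others 0.27 to 0.46) and Me1/Me3 at 2.90 (others 1.69 to 1.98).

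In dopaminergic library 4 the values that stood apart were Hk2 at 0.326 FPKM (others 0.00762 to 0.0391), Pgk1 at 212 FPKM (others 248 to 253), Pdhb at 148 FPKM (others 153 to 154) and Idh3a at 54.9 FPKM (others 63.5 to 65). In dopaminergic library 2 the values that stood apart were Eno1 at 61.4 FPKM (others 55 to 56.1) and Idh1 at 28.9 FPKM (others 33.4 to 34.2). In dopaminergic library 3 the value that stood apart was Tpi1 at 333 FPKM (others 300 to 303). In whole midbrain library 5 the value that stood apart was Cs at 107 FPKM (others 99.5 to 100.5). In whole midbrain library 3 the value that stood apart was Suclg2/Sucla2 at -2.95 (others -3.19 to -3.12), a log2 ratio.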

How the results depend on the processing

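Under TPM the enzyme genes called were 3 higher and 21 lower, the other pathway genes 7 higher and 33 lower, and all genes tested 2069 higher and 7667 lower. Under quantile normalization the enzyme genes called were 5 higher and 21 lower. The median log2 fold change of the enzyme genes was -0.28 under TPM and -0.27 under quantile normalization, against 0.41 as deposited. With a minimum mean of 5 FPKM, which tests fewer genes, 2493 genes in all and 10 other pathway genes were lower. The direction turned, as log2 fold changes, under TPM for Hk1 -0.66, Pfkl -0.53, Pgk1 -0.28, Eno2 -0.29, Pkm -0.60, Ldha -0.017, Ldhb -0.13, Pdha1 -0.66, Dlat -0.092, Pdhx -0.26, Pdk3 -0.22, Idh3a -0.40, Idh3b -0.10, Idh3g -0.50, Ogdh -0.57, Dlst -0.44, Sucla2 -0.61, Suclg1 -0.15, Fh1 -0.68, Mdh2 -0.068, Got1 -0.59, Got2 -0.48, Me1 -0.16 and Rpe -0.13, and under quantile normalization for Hk1 -0.27, Pgk1 -0.44, Pgam1 -0.20, Eno2 -0.53, Pkm -0.65, Ldhb -0.59, Mpc1 -0.088, Pdha1 -0.50, Idh3a -0.24, Idh3b -0.23, Idh3g -0.53, Ogdh -0.32, Dlst -0.12, Sucla2 -0.49, Fh1 -0.35, Mdh2 -0.36, Mdh1 -0.34, Got1 -0.70, Got2 -0.44, Pgam2 0.029 and Slc16a7 0.21. The cause was not tested.

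With the length correction the direction turned for Fh1 -0.017, Got1 -0.015, Slc2a3 0.14 and Slc16a7 0.36, and with median centring for Dld 0.059. With a pseudocount of 5 the log2 difference of the ratio Pdk1/Pdk2 was -0.18. Values near 0 changed sign when single libraries were left out, running from -0.035 to 0.084 for Hk1, -0.0022 to 0.083 for Pdha1, -0.11 to 0.036 for Dld, -0.020 to 0.11 for Fh1, -0.050 to 0.10 for Pdk1/Pdk2 and -0.16 to 0.018 for Idh3g/Idh3a. None of these was called with all libraries. The number of ratios called ran from 0 to 12 when a library was left out, and was 9 and 7 with pseudocounts of 0.1 and 5. Enzyme genes called higher ran from 22 to 31 and lower stayed at 8. With the replicate number as a block, 22 enzyme genes were called higher and 7 lower, and Cs, Idh3a, Dlst, Mdh1 and Got2 lost their call. Whether same-numbered libraries belong together was not tested beyond the correlations across genes given with the processing.

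Transcripts are compared, not protein or flux. The 4 and 5 libraries are not stated to be separate animals, the estimated depth of whole midbrain was lower than that of the neurons, and the values of the groups differ in form.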
